A study of Mus musculus with 15 samples.

Results

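The NKR-P1 receptors, KLRG1 and related lectin-like receptors were described as a family of 10 genes: the NKR-P1 receptor genes Klrb1a, Klrb1b, Klrb1c and Klrb1f, the inhibitory receptor gene Klrg1, the KLRE and KLRI chain genes Klre1, Klri1 and Klri2, and the Clr ligand genes Clec2d and Clec2i. They were taken by symbol from the array's annotation, among 18193 genes that it names. Of the 10 genes, 7 had a probe set of their own, and Klrb1c was reached only by a probe set listed for both Klrb1b and Klrb1c, called the shared Klrb1b and Klrb1c probe set here. Klri1 and Klri2 had no probe set listed and are not analysed here. The members had 14 probe sets in all, the shared one included, and 6 of the 7 genes passed the filter on low signal (at least 100 in at least 3 arrays), Klrb1a being the exception.

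RNA was measured on 15 oligonucleotide arrays, 1 per sample. The tumours were 9 murine peripheral T cell lymphomas (mPTCL 1 to 9), which arose in C57BL/6 CD3KO mice given p53KO T cells and were sorted from the liver. The normal cells were 3 samples of T cells activated in vitro and 3 samples of resting T cells, all of p53 KO C57Bl/6 mice 5 weeks old, sorted from liver or spleen. The T cells given to the recipients and the normal T cells thus all lacked p53. The labels also mention repeated injections of PBS or heat-killed Streptococcus pneumoniae in p53-deficient mice, without saying whether the donors of the normal cells received them, and they do not say how the T cells were activated. They do not say whether samples of a group came from separate animals, so p-values measure the spread between these samples, which may be technical. Loss of CD3 removes the recipients' own T cells and leaves their NK, B and myeloid cells.

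NKR-P1 receptors and their Clr ligands are encoded side by side in the NK gene complex, and on NK cells and some T cells they sense whether neighbouring cells carry Clr proteins. NKR-P1B is inhibitory, through a cytoplasmic motif that recruits the phosphatase SHP-1, and binds Clr-b, the product of Clec2d, whereas NKR-P1C, the NK1.1 marker of C57BL/6 mice, and NKR-P1F are activating receptors, the first of them signalling through the Fc receptor gamma chain. KLRG1 carries an inhibitory motif, binds cadherins such as E-cadherin and marks mature NK cells and differentiated effector T cells, and KLRE1 pairs with KLRI1 or KLRI2 on NK cells.

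Values are MAS5 array signals, which are linear and scaled so that the 2% trimmed mean of each array is 500. For averages and tests, signals under 32 were set to 32 and log2 was taken, so that 5 is the lowest log2 level. Levels of different probe sets were not set against each other. A bulk signal cannot tell fewer cells of a type apart from less RNA per cell. T cell markers were checked first: of 10 tested, 7 fell and 0 rose in the lymphomas against resting T cells, and again 7 fell and 0 rose against activated T cells, with mean log2 levels of the list of 8.06 to 10.14 in the lymphomas, 12.79 to 12.83 in activated and 12.85 to 13.00 in resting T cells. Cd3e, a chain of the T cell receptor complex, had 23.0 to 4965 in the lymphomas, with 51.4, 23.0 and 524 in mPTCL 3, 4 and 5, against 2098 to 2701 in activated and 2795 to 3100 in resting T cells. Neutrophil markers were high in some lymphomas: the summed signal of 11 markers was 515 to 115456 in the lymphomas, 553 to 743 in activated and 558 to 665 in resting T cells. S100a9, Lcn2 and Cxcr2 were under 32 in all activated arrays, and Lcn2 and Cxcr2 in all resting arrays. The 11 B cell markers summed to 1960 to 65705 in the lymphomas, 9590 to 24158 in activated and 17919 to 19110 in resting T cells. The version of the array software is given for the lymphomas only, so that any difference in handling between lymphomas and normal cells cannot be told apart from the difference between the groups.

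Klrb1b, the inhibitory NKR-P1B receptor gene, was close to or below the floor in all 6 normal samples and was at 2901 or more in 5 lymphomas. Its signal was 9421, 5764, 72.9, 139, 131, 11685, 3543, 2901 and 180 in mPTCL 1 to 9. It was 9.24, 69.5 and 31.3 in the activated T cells and 8.11, 22.5 and 56.6 in the resting T cells. On the probe set used, all 9 lymphomas lay above all 6 normal samples, though mPTCL 3 did so by little. Of these, 7 exceeded the highest normal sample more than 2-fold, mPTCL 4 and 9 among them at only 139 and 180. mPTCL 1, 2, 6, 7 and 8 were high and mPTCL 3, 4, 5 and 9 low, with no value between 180 and 2901. On the other Klrb1b probe sets, 5 to 9 lymphomas lay above all normal samples. More than 2-fold above them were 5 to 8, with mPTCL 1, 2, 6, 7 and 8 among them each time.

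The mean log2 level of Klrb1b was 10.04 ± 3.00 in the lymphomas (SD, n = 9), 5.37 ± 0.65 in activated and 5.27 ± 0.48 in resting T cells (SD, n = 3 each). The log2 change was 4.76 against resting T cells (95% interval 1.37 to 8.15, limma adjusted p = 0.0515) and 4.67 against activated T cells (1.25 to 8.08, adjusted p = 0.0528). Neither passed the threshold of an adjusted p under 0.05 with a change of at least 2-fold. Of 27 alternative settings, 10 called the first change and 11 the second, so both stand at the edge of the threshold. The intervals and p-values rest on 1 common spread for both groups, although the SD was larger in the lymphomas. Among these, the fit of every probe set called the Klrb1b probe set used here in both comparisons (adjusted p = 0.0475 and 0.0455) and none of the other 4 Klrb1b probe sets (adjusted p of 0.0578 to 0.233). In 2 of the 3 samples of each normal group the signal was below the floor, so these changes depend on where the floor lies. The other 4 probe sets of Klrb1b followed the same course, with Pearson's r of 0.940 to 0.996 between pairs of the 5 probe sets over the 15 arrays, which share their scaling and their groups.

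The shared Klrb1b and Klrb1c probe set behaved otherwise in the normal cells. Its signal was 1834, 1569, 69.5, 12.7, 20.1, 1387, 1520, 385 and 893 in mPTCL 1 to 9. It was 16.9, 15.0 and 10.3 in activated T cells and 260, 174 and 117 in resting T cells. All 3 activated samples were below the floor and all 3 resting samples well above it, and the groups did not overlap. With every probe set fitted, where 11.4% of probe sets were called, the probe set fell by at least 5.45-fold in activated T cells (log2 change -2.45, SE 0.31, limma adjusted p = 0.00299), and it was called whichever of the 6 samples was left out (log2 change -2.74 to -2.16). No such difference was seen in Klrb1b itself, at 0.10 on the log2 scale between activated and resting T cells (95% interval -0.84 to 1.03, adjusted p = 0.879).

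In the lymphomas the shared probe set was more than 2-fold above the highest normal sample in mPTCL 1, 2, 6, 7 and 9, and 6 of 9 lymphomas lay above all normal samples. Its log2 change in the lymphomas was 1.11 against resting T cells (adjusted p = 0.583, with 14.7% of probe sets called) and 3.55 against activated T cells (adjusted p = 0.0624, with 18% called), so neither passed. In mPTCL 9 the shared probe set stood at 893, against at most 260 in the normal cells, while Klrb1b stood at 180. The gene behind a signal of this probe set cannot be told apart between Klrb1b and Klrb1c.

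**Figure D1:**
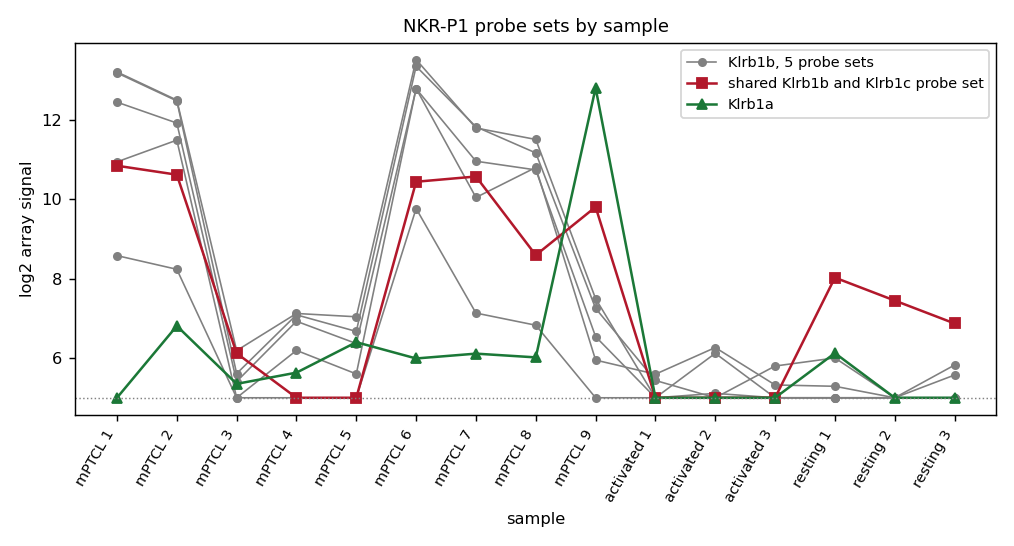
Log2 array signal (vertical axis) in each sample (horizontal axis), with 1 line per probe set; grey lines are the 5 probe sets of Klrb1b, red squares the shared Klrb1b and Klrb1c probe set and green triangles Klrb1a, and the dotted line is the floor at 5. The grey lines are high together in mPTCL 1, 2, 6, 7 and 8, the red line is also above the floor in the 3 resting samples and in mPTCL 9, and the green line peaks in mPTCL 9 at 12.80.

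Klrb1a, the gene of NKR-P1A, was high in 1 tumour. Its signal was 7128 in mPTCL 9 and 16.6 to 112 in the other 8 lymphomas, against 5.68 to 8.13 in activated and 1.83 to 69.7 in resting T cells. The value in mPTCL 9 was 102 times the highest normal sample and 63.6 times the next lymphoma, mPTCL 2. Klrb1a was not tested, having missed the filter. When all genes were fitted without that filter, its log2 change was 1.30 against resting T cells (limma adjusted p = 0.622) and 1.68 against activated T cells (adjusted p = 0.458).

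Klrb1f, the gene of the activating receptor NKR-P1F, read 142 to 291 in the normal cells on the probe set used. It was more than 2-fold above all of them in 6 lymphomas. Its signal was 1882, 1464, 1505, 402, 87.4, 1546, 1410, 2023 and 55.6 in mPTCL 1 to 9. It was 237, 291 and 289 in activated T cells and 238, 176 and 142 in resting T cells. In mPTCL 1, 2, 3, 6, 7 and 8 the level lay within a narrow band of 1410 to 2023, all more than 2-fold above the highest normal sample, whereas mPTCL 9 was more than 2-fold below the lowest. The mean log2 level was 9.43 ± 2.00 in the lymphomas (SD, n = 9), 8.08 ± 0.17 in activated and 7.50 ± 0.37 in resting T cells (SD, n = 3 each). Over all 9 lymphomas the log2 change was 1.93 against resting T cells (95% interval -0.35 to 4.21, limma adjusted p = 0.223) and 1.35 against activated T cells (-0.93 to 3.63, adjusted p = 0.378), and neither passed.

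The Klrb1f result depended on the lymphomas included. Over mPTCL 3, 6 and 7, the 3 lymphomas left after those with a mean log2 neutrophil level over 7.90 (2 above the highest normal sample) were set aside, Klrb1f rose by 3.04 on the log2 scale against resting T cells (adjusted p = 0.00434) and by 2.45 against activated T cells (adjusted p = 0.00435), both past the threshold. mPTCL 6 was just under that limit at 7.84, with a summed neutrophil signal of 11348, against at most 743 in the normal cells. The 2 lymphomas with the lowest Klrb1f, mPTCL 5 and 9, were among those set aside, and the part of neutrophil RNA in these values was not tested. A second Klrb1f probe set read 5.33 to 351 in the lymphomas, 19.3 to 32.1 in activated and 5.74 to 60.3 in resting T cells, with a Pearson's r of 0.709 to the first over 15 arrays. In each normal group, 2 of the 3 samples were below the floor on the second probe set. The probe sets disagreed in mPTCL 9, where the second probe set was at 166, more than 2-fold above all 6 normal samples. The second probe set was that far above them in 7 lymphomas, against 6 on the first. In the fit of every probe set, the second one was called against activated T cells (log2 change 2.25, SE 0.71, adjusted p = 0.0374) and not against resting T cells (1.95, adjusted p = 0.0787).

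The promoters of the NKR-P1 genes are shown because the 3 genes with a probe set of their own took different courses across the lymphomas. On the probe sets used, Klrb1b was at 2901 or more in 5, Klrb1f at 1410 or more in 6 and Klrb1a at 7128 in 1. Any link between promoters and courses was not tested. The sequences are those of RefSeq on GRCm38.p6, from 250 bases before to 50 bases after the annotated start, and were found for 8 of the 10 members. Capitals mark 3 short motifs searched on both strands: TGTGGT, bound by Runx factors and held by 16.9% of 27025 promoters of this length, GGTGTG, bound by T-box factors such as T-bet and Eomes and held by 19.0%, and GGAAGT, bound by Ets factors and held by 24.1%. The first 2 can share letters, but no matches in these 4 promoters overlapped, and a match is a description and not a binding site.
Klrb1b: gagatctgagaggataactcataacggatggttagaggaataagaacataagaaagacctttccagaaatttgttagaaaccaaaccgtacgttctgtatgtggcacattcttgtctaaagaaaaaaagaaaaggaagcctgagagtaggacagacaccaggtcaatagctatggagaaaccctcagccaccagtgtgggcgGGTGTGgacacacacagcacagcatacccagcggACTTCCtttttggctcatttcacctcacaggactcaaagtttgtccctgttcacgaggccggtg
Klrb1c: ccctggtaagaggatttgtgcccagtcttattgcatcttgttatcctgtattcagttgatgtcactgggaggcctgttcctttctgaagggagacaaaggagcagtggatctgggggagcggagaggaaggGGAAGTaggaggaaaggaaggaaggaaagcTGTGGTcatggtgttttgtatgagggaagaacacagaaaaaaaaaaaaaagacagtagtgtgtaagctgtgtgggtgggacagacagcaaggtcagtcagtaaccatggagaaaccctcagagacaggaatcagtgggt
Klrb1f: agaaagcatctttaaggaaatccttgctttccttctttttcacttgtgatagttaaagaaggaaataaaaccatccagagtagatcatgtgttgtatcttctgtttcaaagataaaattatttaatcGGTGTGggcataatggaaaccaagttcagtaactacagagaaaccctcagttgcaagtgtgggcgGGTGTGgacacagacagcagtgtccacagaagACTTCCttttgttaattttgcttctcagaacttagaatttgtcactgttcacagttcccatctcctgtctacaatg
Klrb1a: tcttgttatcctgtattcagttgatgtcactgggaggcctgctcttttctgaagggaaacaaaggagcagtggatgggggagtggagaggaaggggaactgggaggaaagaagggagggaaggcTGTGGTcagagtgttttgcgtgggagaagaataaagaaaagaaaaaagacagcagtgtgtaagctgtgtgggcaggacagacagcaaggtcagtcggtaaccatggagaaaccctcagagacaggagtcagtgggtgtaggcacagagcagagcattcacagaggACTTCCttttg
The sequences lie at chr6:128826266-128826565 on the minus strand for Klrb1b, chr6:128788592-128788891 on the minus strand for Klrb1c, chr6:129045651-129045950 on the plus strand for Klrb1f and chr6:128622885-128623184 on the minus strand for Klrb1a.

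The Runx motif occurred once each in the Klrb1a and Klrb1c promoters and 0 times in those of Klrb1b and Klrb1f. The T-box motif occurred once in Klrb1b, 2 times in Klrb1f and 0 times in Klrb1a and Klrb1c. The Ets motif occurred once in each of the 4. In global alignments, the Klrb1a and Klrb1c promoters were identical at 69.4% of aligned columns and those of Klrb1b and Klrb1f at 55.0%, while the other pairs among the 8 promoters were at 41.4% to 48.5%.

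Klrg1, the inhibitory receptor gene of mature NK and effector T cells, was the single member called between the normal states and was high in 6 lymphomas. Its signal was 8444, 34175, 205, 240, 876, 16717, 5332, 22096 and 2941 in mPTCL 1 to 9. It was 164, 177 and 201 in activated T cells and 491, 664 and 295 in resting T cells. All activated samples lay below all resting samples, and mPTCL 1, 2, 6, 7, 8 and 9 were more than 2-fold above the highest resting sample. mPTCL 3 and 4 lay below all resting samples and just above the activated ones.

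In activated against resting T cells, 12.7% of the 11902 genes tested were called (8.45% higher and 4.23% lower), and of the 6 members tested Klrg1 was called lower and 0 higher. It fell by 1.35 on the log2 scale (SE 0.32, 95% interval -2.11 to -0.59, limma adjusted p = 0.0204), a 2.55-fold decrease. The call was lost without resting replicate 1 and without each of the activated replicates in turn, where the change ranged from -1.66 to -1.08 over all 6 samples left out and the adjusted p reached 0.0685. It was also lost with no filter on low signal (adjusted p = 0.0631) and when all 15 arrays shared 1 fit (adjusted p = 0.793). The other members had log2 changes of 0.58 for Klrb1f (95% interval -0.02 to 1.18), -0.24 for Klre1 (-0.93 to 0.44), -0.04 for Clec2d (-0.98 to 0.89) and -0.26 for Clec2i (-0.96 to 0.44), with adjusted p-values of 0.127 to 0.949.

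Against activated T cells the log2 change of Klrg1 in the lymphomas was 4.27 (95% interval 1.16 to 7.37, limma adjusted p = 0.0522), and 9 of 27 alternatives called it, the fit of every probe set among them (adjusted p = 0.0449). Against resting T cells it was 2.92 (-0.19 to 6.03, adjusted p = 0.177), and 1 of 27 called it. Lymphoma and activated samples did not overlap, while lymphoma and resting samples did, because of mPTCL 3 and 4. Klrg1 signals of 5332 or more were found in mPTCL 1, 2, 6, 7 and 8, whose mean log2 neutrophil levels were 11.35, 9.80, 7.84, 6.02 and 10.65, against at most 5.90 in activated and 5.88 in resting T cells. mPTCL 4 and 5, with neutrophil means of 11.36 and 11.90, had 240 and 876. These 2 also had the lowest mean log2 T cell marker levels of the lymphomas, 8.06 and 8.30. The part of neutrophil RNA or of other cells in the Klrg1 signals was not tested.

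Klre1, the gene of the chain that pairs with KLRI1 or KLRI2, split the lymphomas on both sides of the normal cells. Its signal was 380, 6158, 45.1, 31.4, 89.9, 1875, 42.9, 6240 and 8855 in mPTCL 1 to 9. It was 186, 199 and 254 in activated T cells and 343, 183 and 249 in resting T cells. mPTCL 2, 6, 8 and 9 were more than 2-fold above the highest normal sample and mPTCL 3, 4, 5 and 7 more than 2-fold below the lowest, which leaves mPTCL 1 alone near the normal range. The mean log2 level of 8.91 ± 3.42 (SD, n = 9) in the lymphomas therefore describes none of them well, against 7.72 ± 0.24 in activated and 7.96 ± 0.45 in resting T cells (SD, n = 3 each). The log2 change was 0.94 against resting T cells (95% interval -2.91 to 4.80, limma adjusted p = 0.749) and 1.19 against activated T cells (-2.68 to 5.05, adjusted p = 0.668). Both changed direction without the 6 lymphomas high in neutrophil markers, to -0.70 (adjusted p = 0.771) and -0.46 (adjusted p = 0.848).

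Klrd1, the CD94 gene of another receptor family of the complex, read 1334, 22576, 464, 559, 659, 11973, 52.2, 15275 and 21945 in mPTCL 1 to 9, against 15301 to 22513 in activated and 8533 to 11216 in resting T cells. It was thus highest in mPTCL 2, 6, 8 and 9, as Klre1 was. In the normal cells, high Klrd1 went with Klre1 signals of 183 to 343, so the Klre1 levels of these 4 lymphomas were not seen there. Klrk1, the NKG2D gene, read 8962, 5029, 6806 and 63.7 in mPTCL 2, 6, 8 and 9, so that mPTCL 9 had high Klre1 with low Klrk1.

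**Figure D2:**
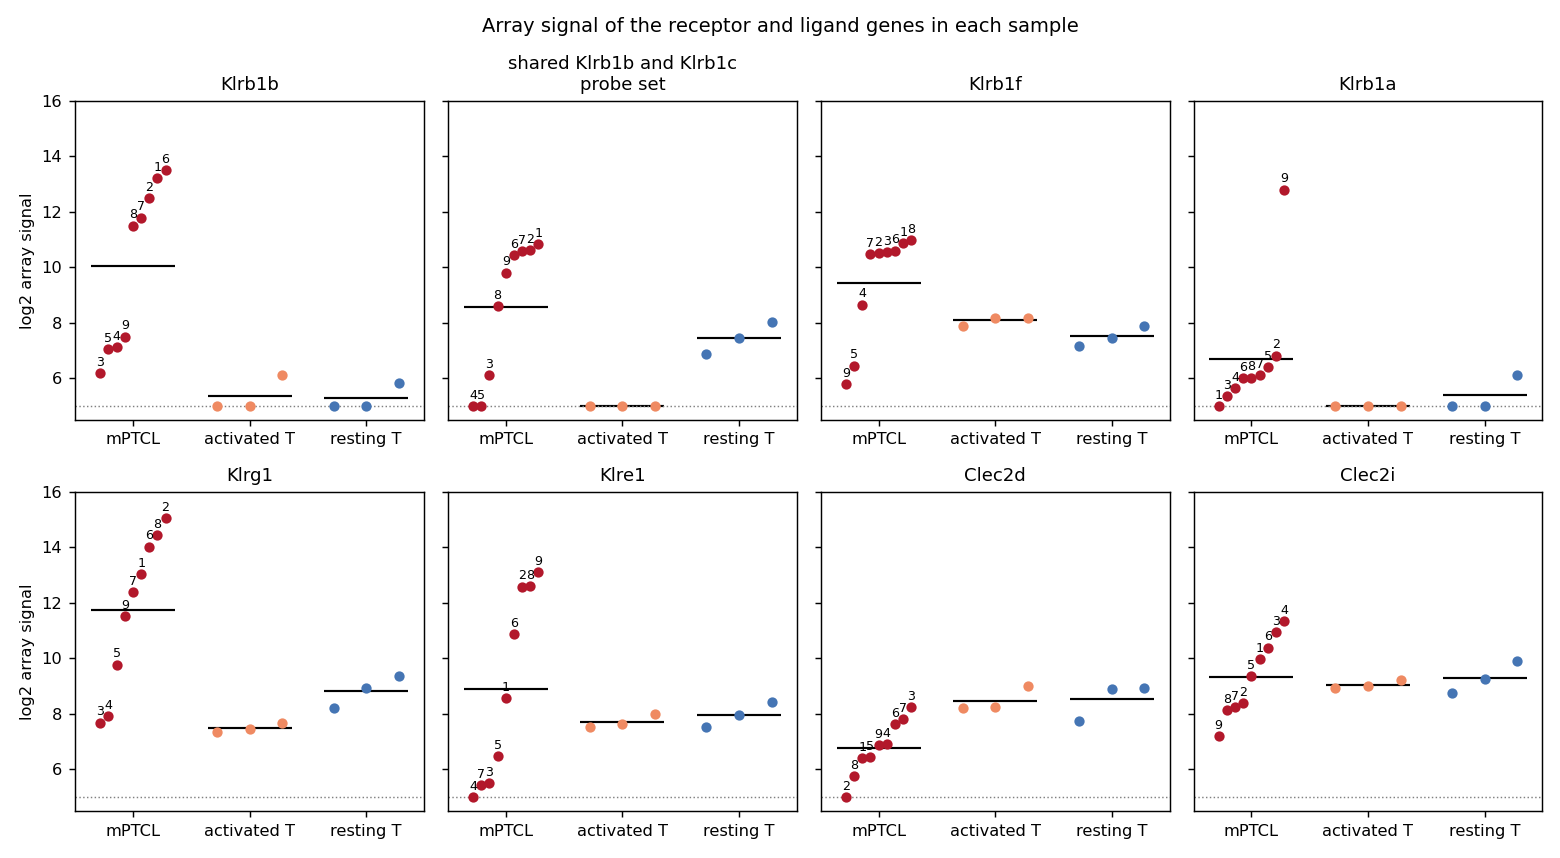
Log2 array signal (vertical axes) of the 7 members with a probe set of their own and of the shared Klrb1b and Klrb1c probe set in 9 lymphomas, 3 activated and 3 resting T cell samples (horizontal axes). Points are samples, numbers are mPTCL numbers, bars are group means and the dotted line is the floor at 5. The normal samples stay close together while the lymphomas spread widely, with a gap in Klrb1b and values on both sides of the normal cells in Klre1.

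The Clr ligand genes did not follow the receptors. Clec2d, which encodes the NKR-P1B ligand Clr-b, was lower in most lymphomas. Its signal was 85.4, 16.7, 305, 119, 86.0, 199, 226, 53.7 and 117 in mPTCL 1 to 9. It was 295, 509 and 301 in activated T cells and 491, 215 and 471 in resting T cells. Of 9 lymphomas, 7 lay below all 6 normal samples, and mPTCL 1, 2, 5 and 8 were more than 2-fold below the lowest of them, while mPTCL 3 and 7 overlapped the normal range.

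The mean log2 level of Clec2d was 6.78 ± 1.03 in the lymphomas (SD, n = 9), 8.48 ± 0.45 in activated and 8.52 ± 0.67 in resting T cells (SD, n = 3 each). The log2 change was -1.74 against resting T cells (95% interval -3.04 to -0.44, limma adjusted p = 0.0621) and -1.69 against activated T cells (-2.96 to -0.42, adjusted p = 0.0576). Neither passed the threshold, and 4 and 5 of 27 alternatives called them. Over mPTCL 3, 6 and 7 alone the changes were -0.62 (adjusted p = 0.356) and -0.57 (adjusted p = 0.269). Clec2d read 16.7 to 226 in mPTCL 1, 2, 6, 7 and 8, where Klrb1b was 2901 or more, and 86.0 to 305 in mPTCL 3, 4, 5 and 9, so the ranges overlapped. mPTCL 3, with the lowest Klrb1b of the lymphomas, had the highest Clec2d.

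Clec2i, which encodes Clr-g, a ligand of NKR-P1F, had similar means in the 3 groups. Its signal was 1002, 336, 1968, 2616, 663, 1340, 303, 283 and 147 in mPTCL 1 to 9. It was 516, 596 and 484 in activated T cells and 430, 618 and 960 in resting T cells. mPTCL 3 and 4 were more than 2-fold above the highest normal sample and mPTCL 9 more than 2-fold below the lowest. The log2 change was 0.02 against resting T cells (95% interval -1.64 to 1.69, limma adjusted p = 0.986) and 0.28 against activated T cells (-1.36 to 1.92, adjusted p = 0.821), intervals too wide to show that the groups have the same level. A second Clec2i probe set ran with the first (Pearson's r 0.923 over 15 arrays) and had 0 lymphomas more than 2-fold above the highest normal sample and 3, mPTCL 2, 8 and 9, more than 2-fold below the lowest.

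Across the 6 tested members, limma called 0 in the lymphomas against resting T cells, where 13.9% of all tested genes were called (7.03% higher and 6.84% lower), and 0 against activated T cells, where 15.3% were (7.04% higher and 8.28% lower). At an unadjusted p under 0.05 there were 2 against resting T cells (Klrb1b higher, Clec2d lower) and 3 against activated T cells (Klrb1b and Klrg1 higher, Clec2d lower). The lymphomas themselves varied: the SD over the 9 lymphomas was at least 2 log2 units for Klrb1b, Klrb1f, Klrg1 and Klre1, against 3.63% of all tested genes, and Klrb1f was just at that limit. More than 2-fold above the highest normal sample in at least 6 lymphomas were Klrb1b (7), Klrg1 (6) and Klrb1f (6), against 2.6% of all tested genes. The probe sets not used gave 5 to 8 lymphomas for Klrb1b and 7 for Klrb1f. Their SD over the 9 lymphomas was 1.84 to 3.13 log2 units for Klrb1b and 1.33 for Klrb1f, so not all of them reached 2. Klrb1b passed the filter on low signal only through the lymphomas, so its place in these counts was favoured by the filter.

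**Figure D3:**
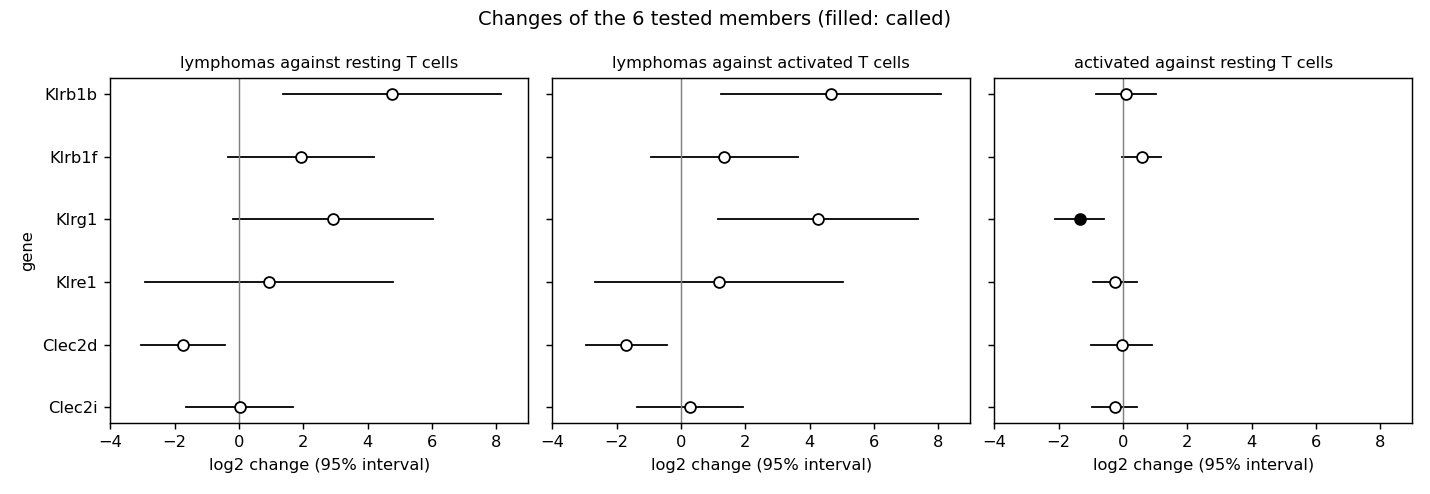
Log2 change (horizontal axes) with its 95% interval for the 6 tested members (vertical axis) in lymphomas against resting T cells, lymphomas against activated T cells and activated against resting T cells. Filled points passed the threshold and open points did not. Klrg1 in activated against resting T cells is the single filled point, at -1.35, and the lymphoma intervals are several log2 units wide.

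By tumour, the receptor probe sets formed distinct combinations. Counting Klrb1a, Klrb1b, the shared Klrb1b and Klrb1c probe set, Klrb1f, Klrg1 and Klre1, mPTCL 2, 6 and 9 each had 5 of 6 more than 2-fold above every normal sample, mPTCL 1, 7 and 8 had 4, mPTCL 3 and 4 had 1 and mPTCL 5 had 0. Of all 11902 tested genes, the share that far above every normal sample was 8.27%, 8.22%, 5.58%, 8.75%, 7.81%, 9.49%, 6.82%, 10% and 7.86% in mPTCL 1 to 9. The single high probe set of mPTCL 4 was Klrb1b at 139, just past 2-fold, and that of mPTCL 3 was Klrb1f. mPTCL 5 had the highest neutrophil and B cell sums of the lymphomas (115456 and 65705) and the lowest T cell marker sum (4759). mPTCL 4 had a neutrophil sum of 71024, whereas mPTCL 3 had the lowest, 515. The part of other cells in these counts was not tested. For Klrb1b, mPTCL 4 and 9 were more than 2-fold above every normal sample on some of its other probe sets and not on the rest. These 6 probe sets cannot be taken as independent, since the shared one is also listed for Klrb1b. Klrb1a and the shared probe set are not among the tested genes, and Klrb1b passed the filter only through the lymphomas. The counts and the shares are therefore not fully alike. mPTCL 2 and 6 lacked only Klrb1a, and mPTCL 1 and 7 lacked Klrb1a and Klre1. mPTCL 8 lacked Klrb1a and the shared probe set. mPTCL 9 carried Klrb1a, Klre1, Klrg1, the shared probe set and a modest Klrb1b signal, and lacked only Klrb1f on the probe set used. On the second Klrb1f probe set, mPTCL 9 was more than 2-fold above every normal sample.

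Genes of NK-like and innate-like cells also differed among these tumours. Ncr1, which encodes the NK receptor NKp46, read 618, 3045, 92.8, 3.90, 6.72, 347, 671, 2287 and 25.5 in mPTCL 1 to 9, against 13.7 to 21.2 in activated and 21.2 to 71.5 in resting T cells. It was thus high in mPTCL 1, 2, 6, 7 and 8, as Klrb1b was. Zbtb16, which encodes PLZF, a regulator of innate-like T cells, was at 1169 in mPTCL 9 and 49.1 to 296 in the other 8, against 79.8 to 136 in activated and 58.5 to 87.6 in resting T cells. Tbx21, which encodes T-bet, was more than 2-fold below every normal sample in mPTCL 3, 4 and 5, the tumours with 1 or 0 high receptor probe sets. Eomes, which encodes a related T-box factor, was more than 2-fold below in mPTCL 3, 4, 5 and 6. The 19 NK cell surface and cytotoxic genes summed to 8163 to 174022 in the lymphomas, 52687 to 63797 in activated and 29193 to 33650 in resting T cells, with the highest mean log2 level in mPTCL 2 (11.36) and the lowest in mPTCL 5 (7.50). The part of NK cells of the host in the receptor signals was not tested.

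**Figure D4:**
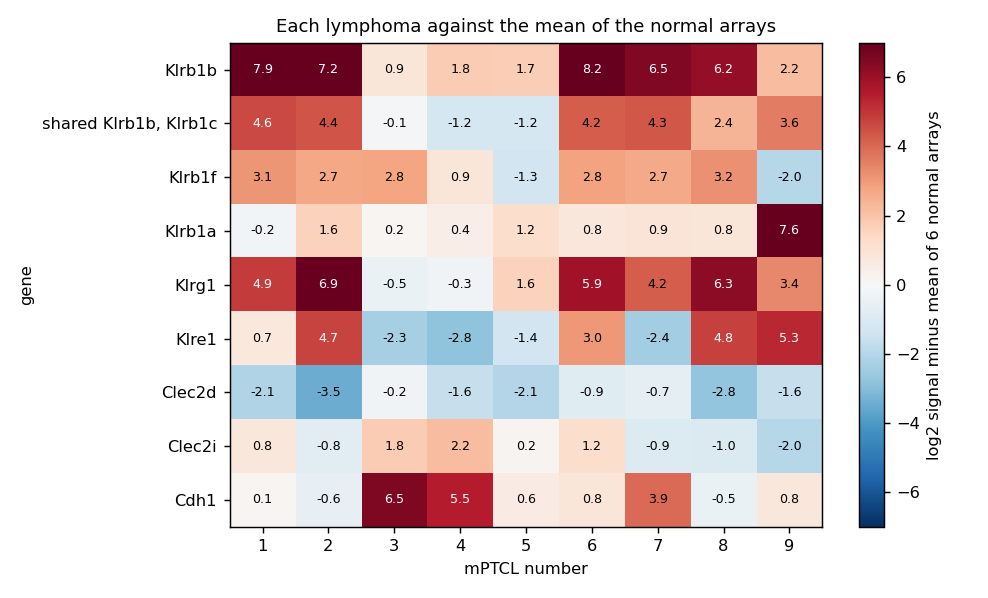
Difference between the log2 signal of each lymphoma and the mean log2 signal of the 6 normal arrays (colour and printed number) for the receptor and ligand genes (vertical axis) in mPTCL 1 to 9 (horizontal axis). Klrb1b and Klrg1 are high together in mPTCL 1, 2, 6, 7 and 8, Klrb1a stands out in mPTCL 9, and Cdh1 is high in mPTCL 3, 4 and 7.

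Cdh1, which encodes the KLRG1 ligand E-cadherin, was high in 3 lymphomas. Its signal was 6664, 3236 and 1114 in mPTCL 3, 4 and 7 and 48.9 to 129 in the other 6, against 32.7 to 125 in activated and 66.0 to 119 in resting T cells. mPTCL 3 and 4 combined high Cdh1 with the lowest Klrg1 of the 9 lymphomas, and mPTCL 7 had both genes high, with Klrg1 at 5332. The log2 change of Cdh1 in the lymphomas was 1.76 against resting T cells and 2.08 against activated T cells, and neither passed the limma threshold. The other 2 cadherin ligand genes on the list did not pass the filter on low signal.

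Of the other NKR-P1 and Clr genes, 10 were listed, 6 were on the array and 2 were tested. Cd69, an early activation receptor gene in the same gene complex, fell by 1.63 on the log2 scale in activated against resting T cells (SE 0.13, limma adjusted p = 0.000444). Its signal was 880, 809 and 768 in activated and 2978, 2255 and 2433 in resting T cells, with no overlap. In the lymphomas Cd69 read 409 to 13676, with the highest value in mPTCL 6, and was not called. Clec2g was below 32 in 6 of 9 lymphomas and in all 6 normal samples, and Clec2h was at 5.65 to 65.4 in the lymphomas, against 55.3 to 106 in activated and 52.9 to 73.1 in resting T cells. In the RefSeq order on chromosome 6, Klrb1b lies between Klrb1c and Clec2i among the listed genes, and Klrb1f lies between Clec2f and Clec2e.

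The adaptors and kinases that couple activating receptors to the cell changed in part. Of 12 tested, 1 fell and 0 rose in activated against resting T cells, with a list median of -0.43 against 0.02 for all tested genes on the log2 scale. In the lymphomas 1 rose and 1 fell against resting T cells (list median -0.93, all genes -0.02), and 2 rose and 2 fell against activated T cells (-0.29, all genes -0.08). Tyrobp, which encodes the adaptor DAP12, fell by 1.97 on the log2 scale in activated against resting T cells (SE 0.28, limma adjusted p = 0.00356). Its signal was 76.1 to 12881 in the lymphomas, 32.4 to 44.4 in activated and 111 to 206 in resting T cells, and it rose by 5.91 on the log2 scale in the lymphomas against activated T cells (SE 1.49, adjusted p = 0.0147). Neutrophils also express Tyrobp, and the part of RNA of neutrophils or other cells in its signal was not tested. Tyrobp was 84.4 and 76.1 in mPTCL 6 and 7, with neutrophil means of 7.84 and 6.02 on the log2 scale. It was 7973 in mPTCL 3, with the lowest neutrophil mean of the lymphomas (5.61), and 12881 in mPTCL 9, with 8.03. mPTCL 3 also had the highest summed signal of 7 mast cell and basophil markers among the lymphomas (23764). Of these 7 markers, however, 2 were below the floor in mPTCL 3, and their mean log2 level there was 8.13. mPTCL 4, with Tyrobp at 8715, had the highest summed signal of 12 macrophage markers (40250).

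Fcer1g, the adaptor gene of NKR-P1C, read 73.4 to 6098 in the lymphomas, with the highest value in mPTCL 9, against 102 to 160 in activated and 120 to 210 in resting T cells, and was more than 2-fold above every normal sample in mPTCL 1, 2, 4, 5, 8 and 9, the 6 lymphomas high in neutrophil markers. It was not called. Plcg2, a phospholipase C gamma gene, rose by 3.91 on the log2 scale in the lymphomas against resting T cells (SE 0.50, limma adjusted p = 0.000341) and by 3.38 against activated T cells (SE 0.55, adjusted p = 0.00183). Cd247, the zeta chain gene, fell by 2.54 on the log2 scale against resting T cells (SE 0.69, adjusted p = 0.0227).

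The phosphatases recruited by inhibitory motifs were measured in all samples, and all 4 on the list were tested. Of these, 1 fell in activated against resting T cells, 1 rose in the lymphomas against resting T cells and 0 were called against activated T cells (limma, list medians -0.20, -0.30 and -0.08). Ptpn6, which encodes SHP-1, fell by 1.24 on the log2 scale in activated against resting T cells (SE 0.10, limma adjusted p = 0.000484), with signals of 3592 to 4337 in activated and 8759 to 9836 in resting T cells. In the lymphomas it read 1062 to 8724, with mPTCL 6 and 7 more than 2-fold below every normal sample, and was not called. Ptpn11, which encodes SHP-2, was above all normal samples in 9 of 9 lymphomas, at 2476 to 5703 against 2025 to 2185 in activated and 1549 to 2183 in resting T cells, and rose by 1.03 on the log2 scale against resting T cells (SE 0.25, adjusted p = 0.0145). Inpp5d, which encodes SHIP-1, read 1123 to 5074 in the lymphomas, 1669 to 2112 in activated and 1350 to 2085 in resting T cells and was not called.

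Among 14 tested regulators of NK and innate-like cells, 8 rose and 1 fell in activated against resting T cells (list median 1.27 against 0.02 for all tested genes). The largest changes among those called were Bhlhe40 at 4.19, Nfil3, a factor needed for NK cell development, at 2.91 and Ikzf2 at 1.83 on the log2 scale. In the lymphomas 3 rose and 1 fell against resting T cells, with Bhlhe40 at 4.33, Id2 at 1.42 and Ets1 at -1.51, and 1 rose and 2 fell against activated T cells, with Id2 at 1.75, Ets1 at -1.79 and Gata3 at -2.04. Of the 19 NK cell surface and cytotoxic genes, 5 rose and 3 fell in activated against resting T cells, led by the granzyme gene Gzmb at 4.71, so Klrg1 and the shared Klrb1b and Klrb1c probe set were lower in activated T cells while Klrk1 rose by 2.31 on the log2 scale. In the lymphomas against resting T cells, 1 of the 19 rose (Gzma, 4.11) and 1 fell (Xcl1, -1.90), and against activated T cells 0 rose and 1 fell (Il2rb, -1.91).

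Markers of other cells moved between the normal states too. Of 9 tested macrophage markers, 6 fell and 0 rose in activated against resting T cells, with summed signals of 12 markers of 515 to 577 in activated and 2303 to 4577 in resting T cells, and C1qa, C1qc, Clec4f, Timd4 and Cd163 under 32 in all activated samples. Of 6 tested mast cell and basophil markers, 3 rose and 0 fell, led by Cpa3 at 4.18 on the log2 scale, and the 7 markers summed to 1339 to 1831 in activated and 300 to 385 in resting T cells, with Hdc under 32 in all activated and Mcpt8 and Hdc in all resting samples. In the rat, KLRG1 was first known from a mast cell line. Here the called mast cell and basophil markers rose where Klrg1 and the shared Klrb1b and Klrb1c probe set fell, while the called macrophage markers fell. The part of any of these cells in the Klrg1 and shared probe set differences was not tested.

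The genes most like each tested member across the 9 lymphomas were found by Pearson's r of log2 levels among 10943 genes, as a description over samples that share their scaling and their other cells. For Klrb1b these were Nsmce2 (0.967), Ywhaz (0.962) and Atp2a2 (0.957). For Klrg1 they were Actg1 (0.983), Mcph1 (0.978) and Ppif (0.968). For Klrb1f they were Grhpr (0.957), Lat (0.956), which encodes a T cell receptor adaptor, and F2rl3 (0.950). For Klre1 they were the mitotic genes Aurkb (0.969) and Bub1 (0.965) with Tubb4b (0.958). For Clec2i they were Avpi1 (0.961), Ifitm2 (0.960) and Trpv2 (0.947), and for Clec2d, Mtmr11 (0.917), Thrsp (0.915) and Bnip5 (0.911).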

How the data were processed

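Gene expression was measured on 15 Affymetrix arrays. Per the submitters' processing notes, the authors made the linear intensity values in Affymetrix Expression Console, using its MAS5 method; the version is 1.1 for the lymphomas and not given for the normal cells. A column kit was used to extract RNA, and a 3′ IVT kit amplified the normal cells' RNA, per the labels' protocols. Array medians were 68.0 to 116 in the lymphomas, 110 to 118 in activated and 91.7 to 99.2 in resting T cells. No detection calls were used, and precision is limited by the number of arrays.

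The labels gave the groups. The annotation gives 34958 of 45101 probe sets a single symbol, 932 several and 9211 none, and 64 controls were left out. For each of 18193 genes the probe set with the highest mean log2 signal was used, and the 11902 genes whose signal reached 100 in 3 or more arrays were tested. Signals under 32 were set to 32 and log2 was taken. Tests used limma 3.58.1 in R 4.3.3 (lmFit, eBayes with trend), fitted to the 2 groups compared; calls needed a change of at least 2-fold and an adjusted p under 0.05 (Benjamini-Hochberg, over all tested genes). Each fit took 1 common spread per gene for the groups compared, and among the alternatives only the array weights, set per group, let the spread differ. The fit was tested on simulated data with the same spread in all groups. The members, gene lists and alternatives were chosen with earlier results of these data known. Named were all members, a set of coupled genes, up to 3 called genes with the largest change per list and comparison, and the 3 genes most like each member. The 14 other gene lists cover ligands, adaptors, phosphatases, NK and T cell genes and markers of other cells. Of the hepatocyte list 1 gene was tested and 0 called in each comparison; of 3 tested erythroid genes 1 fell in activated T cells (Alas2), of 11 B cell genes 0 were called, of 6 dendritic cell genes 2 rose and 1 fell in activated T cells, of 6 mast cell genes 2 fell in the lymphomas against activated T cells, and of 10 neutrophil genes 1 fell in activated T cells and 2 rose in the lymphomas against activated T cells. Promoters were RefSeq's. The deleted gene was not analysed here.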

Additional observations from a re-analysis of the deposited data

Results flagged for a closer look

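Klrb1a in mPTCL 9 stood far from the other 8 lymphomas: its level was 12.80 on the log2 scale, and its gap to the next lymphoma was 0.768 of the whole range of the 9. Chance alone marks about 1 in 20 groups in this way. The same tumour had the highest Klre1, Fcer1g and Zbtb16 signals of the 9 lymphomas.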

How the results depend on the processing

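In activated against resting T cells, 0 members were called with no filter on low signal and 0 when all 15 arrays shared 1 fit, against 1; the fit of all 15 arrays called 397 genes and the adjusted p alone 3678, against 1510. In the lymphomas against resting T cells, where 0 members and 1651 genes were called, 1 member was called with a floor of 16, a floor of 64, 16 added before log2, a signal minimum of 200, or without the 6 lymphomas high in neutrophil markers, 2 when all 15 arrays shared 1 fit and 4 with array weights, which called 2715 genes. Against activated T cells, where 0 members and 1824 genes were called, 1 was called with a floor of 16, a floor of 64, or without those 6 lymphomas, 2 with a minimum of 200, quantile normalization or centring on the median, and 3 with all 15 arrays or with array weights, which called 2946 genes. With single samples left out in turn, the called genes numbered 1267 to 1505 in activated against resting T cells, 778 to 1850 in lymphomas against resting and 916 to 2167 in lymphomas against activated T cells, and the called members 0 to 1, 0 to 2 and 0 to 3.

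Some changes reversed, most of them near 0. Klrb1b in activated against resting T cells was -0.024 after quantile normalization, -0.18 after centring, -0.11 without probe sets marked as shared, and -0.27 to 0.37 with single samples left out. Clec2d there was -0.43 to 0.17 and Clec2i -0.54 to 0.040 with single samples left out. Clec2i in the lymphomas against resting T cells was -0.25 with the mean of its probe sets and -0.25 to 0.32 with single samples left out. It was -0.072 there without mPTCL 1 and 5, the 2 lymphomas high in B cell markers. Against activated T cells Clec2i was -0.053 with the mean of its probe sets. Klre1, at 0.94 and 1.19, was -0.70 against resting and -0.46 against activated T cells without the 6 lymphomas high in neutrophil markers. The cause was not tested. Klrb1b and Klrg1 kept their direction in the lymphomas under all 27 alternatives of each comparison, with log2 changes of 3.76 to 5.27 and 2.51 to 3.43 against resting T cells and 3.63 to 5.15 and 3.85 to 4.78 against activated T cells.

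Centring moved the median change of all genes by -0.28 on the log2 scale in activated against resting T cells and by 0.10 and 0.38 in the lymphomas against resting and activated T cells, and quantile normalization moved the last by 0.16. The called genes of activated T cells were then 740 higher and 1201 lower after centring and 845 and 650 after quantile normalization, against 1006 and 504, and those of lymphomas against activated T cells 1558 and 464 after centring, against 838 and 986. Klrg1 was lower in activated T cells under each of these scalings. Replicate numbers did not pair the samples, with correlations of -0.01 to 0.05 between equal numbers, and a fit with the replicate number as a block called 1431 genes and 1 member, Klrg1 (adjusted p = 0.0440). One alternative, the fit of every probe set, was added after seeing the data; it called Klrb1b against resting T cells (adjusted p = 0.0475), and Klrb1b (0.0455) and Klrg1 (0.0449) against activated T cells. Array signals near the floor limit what can be said of Klrb1a, Klrb1b and the shared probe set in normal cells.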
